A study of Mus musculus with 24 samples.

Results

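Mice lacking glutamine synthetase in the liver were compared with wild-type (WT) mice in the hippocampus. The comparison rests on 8 of the 24 arrays of the series, 1 from each of 4 knockout (KO) and 4 WT animals, and covers every row of the array that carries a gene symbol, 19572 of 22206 rows and 19505 different genes. By their labels the same numbered animals also gave cortex and cerebellum, which are used here only to set the hippocampus against them. The study asks how raised ammonia alters transcripts and proteins of the brain. The labels place the deletion in the liver and name no other allele, agent or treatment in either group. The sources used here do not state strain, age, sex, the promoter driving the deletion, whether WT animals carry the unrecombined allele or whether they are littermates. Ammonia levels were not analysed here. The array row of the deleted gene was not analysed here, so the deletion itself was not checked. All values are deposited log2 values, a step of 1 standing for a doubling, and a difference is the KO mean minus the WT mean with its standard error (SE) from the limma fit.

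Liver glutamine synthetase binds the ammonia that escapes the urea cycle to glutamate, and without it ammonia passes into the general circulation. In the brain, astrocytes take up both ammonia and synaptic glutamate, turn them into glutamine and return it to neurons, which make glutamate and GABA from it. The hippocampus, which serves memory, is built of dentate granule cells, the pyramidal cells of fields CA1 to CA3 and scattered inhibitory interneurons, and it lies against the choroid plexus, the thalamus and the habenula.

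The 8 arrays carried marker genes of the hippocampal fields. Prox1, the transcription factor of dentate granule cells, read 11.71 to 12.86 against 8.84 to 9.91 in the cortex. Spink8, a CA1 gene, read 9.02 to 10.66 against 6.88 to 7.74, and Cabp7, a calcium-binding protein abundant in CA3, 13.05 to 13.91 against 9.46 to 11.32. Each of these ranges lay clear of the cortical one, but Prox1 read 11.03 to 12.07 in the cerebellum, which overlaps the hippocampus. C1ql2, Dsp, Tdo2, Fibcd1, Neurod6 and Iyd also lay clear of the cortex. Wfs1, Bok, Rgs14 and Amigo2 overlapped it, Wfs1 at 12.33 to 13.23 against 11.36 to 12.80. The mean of the dentate granule list lay between 9.88 and 10.58 in hippocampus and between 9.02 and 9.23 in cortex, that of CA1 between 11.41 and 11.93 against 10.35 to 10.91, and that of CA3 and mossy cells between 10.12 and 10.52 against 9.32 to 9.96. The CA2 list did not separate the tissues, at 9.42 to 9.87 against 9.02 to 10.04. Any 2 of the 8 arrays correlated at 0.989 to 0.996 over all rows, and the lowest value belonged to KO 2 and KO 4, 2 arrays of the same genotype.

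No gene passed the test between KO and WT hippocampus. With limma on the 8 arrays, 0 of 19572 rows (0%) had a Benjamini-Hochberg adjusted p under 0.05, and the smallest adjusted p was 1.00. At an unadjusted p under 0.05 there were 567 rows (2.9%), of which 315 were higher in KO (1.61%) and 252 lower (1.29%). When each array was shifted to 1 common median the split turned to 247 higher and 311 lower, so the balance of directions depends on the centring. The genotypes did not overlap in 424 rows (2.17%), with all KO above all WT in 232 (1.19%) and all below in 192 (0.981%). The KO mean was the higher in 52.5% of the rows, and the median difference over all rows was 0.0074.

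The precision of the comparison sets how large a change could have gone unseen. The median SE of a difference was 0.119. In 18714 rows (95.6%) the 95% interval of the difference lay wholly within 1.5-fold in either direction, and in 19474 (99.5%) within 2-fold. Each interval holds at 95% for its own row on the scale of the deposited values, and not for all rows together. RMA compresses differences among dim probes, so a narrow interval in a dim row does not bound the change in RNA. The error covers the spread among 4 arrays per genotype.

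Only 5 genes differed by at least 1.5-fold at an unadjusted p under 0.05 (0.0255%): Lcn2 and Pcolce2 with a higher mean in KO, and Chrna3, Pou4f1 and Xlr3b with a lower one. They were picked by these values, none passed after adjustment, and each had overlapping genotypes.

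**Figure D1:**
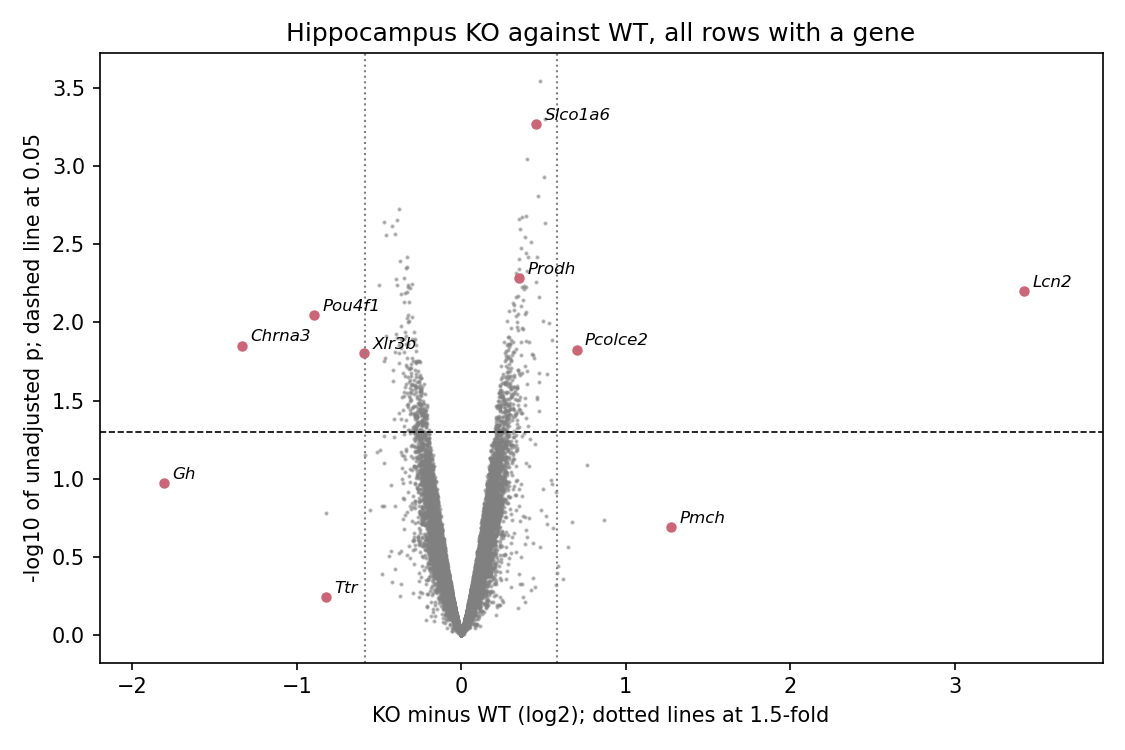
Each dot is 1 of the 19572 rows with a gene: the horizontal axis is the KO mean minus the WT mean in hippocampus on the log2 scale, with dotted lines at 1.5-fold, and the vertical axis is −log10 of the unadjusted limma p, with a dashed line at 0.05. Lcn2 stands alone at 3.42 on the right, and Gh, Pmch and Ttr lie far from 0 while remaining below the dashed line.

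Lcn2, a secreted lipocalin that binds iron-carrying siderophores and belongs to the acute-phase response, had the largest difference of the 19572 rows. It read 9.33, 6.96, 7.20 and 7.64 in WT 1 to WT 4 and 12.22, 12.07, 13.40 and 7.13 in KO 1 to KO 4. Animals KO 1, KO 2 and KO 3 lay above every WT animal, and KO 4 lay among the WT values. The difference was 3.42 (SE 1.04, 95% interval 1.16 to 5.68), or 10.7-fold, with a limma adjusted p of 1.00. Without KO 4 it was 4.78 with an adjusted p of 0.00915, which made Lcn2 the only gene called under any of the alternative fits. The same animals stood out in the other regions: in the cortex KO 1, KO 2 and KO 3 read 11.81, 12.29 and 12.25 and KO 4 read 7.44, and in the cerebellum they read 11.37, 12.53, 13.56 and 7.39. The KO effect in hippocampus minus that in cortex was −0.04 for Lcn2, with an SE of 1.66 in the fit over all genes, whose shared correlation between regions of an animal was near 0. Taken within each animal, hippocampus minus cortex was 0.66, 0.12, −0.08 and 0.50 in WT and 0.41, −0.22, 1.15 and −0.31 in KO. The genotypes overlapped, with the same −0.04 at an SE of 0.38 and a 2-sided exact permutation p of 0.943 (adjusted over both regions 0.943). Against the cerebellum the within-animal value was −0.39 (SE 0.30, exact permutation p 0.257, adjusted 0.514).

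Lcn2 is also a product of neutrophils, whose part in its difference was not tested. Of the 13 genes of the blood marker list only 5 were measured, and 4 of these had a higher KO mean. The mean of the blood list was 7.37 to 7.53 in WT and 7.35 to 7.71 in KO. The list mean was highest in KO 3, the array that was also highest for Lcn2. In KO 2, where Lcn2 was also high, it was the lowest of the 8 arrays at 7.35. It was 7.44 in KO 1 and 7.54 in KO 4, where Lcn2 lay among the WT values. The neutrophil gene S100a8 read 5.80, 5.82, 6.09 and 5.55 in WT and 5.90, 5.79, 5.99 and 5.58 in KO, a difference of −0.00 (SE 0.13). S100a9 differed by 0.13 (SE 0.11) and Ngp, a neutrophil granule protein, by 0.05 (SE 0.11). The values of all 3 overlapped between genotypes, and the genes were chosen after their values were seen.

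The 250 bases upstream of the Lcn2 start are shown because Lcn2 is the gene with the largest difference, and its induction is known to run through NF-κB and C/EBP factors. The sequence is RefSeq's, on the minus strand of GRCm38.p6 at chr2:32387740-32387989, and the capitals mark the only match found.
Lcn2 promoter: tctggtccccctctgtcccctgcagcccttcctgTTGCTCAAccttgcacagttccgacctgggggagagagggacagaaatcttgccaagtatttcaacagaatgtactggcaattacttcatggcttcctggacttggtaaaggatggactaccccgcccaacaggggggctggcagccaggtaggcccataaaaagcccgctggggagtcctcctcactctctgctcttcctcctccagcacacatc
The capitals are a match to the C/EBP letters TTGCNNAA, 216 to 209 bases before the start. Both strands were searched, and these letters occur in 9.56% of 32851 promoter windows of this length. An NF-κB motif, GGGA and CC with 4 free bases between them, occurs in 17.6% of windows, and TTCNNNGAA for STAT factors in 7.02%. Neither is in this window, which says only that these letters are absent from it, and the match found is no evidence of binding.

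Other genes of the reactive astrocyte list, which holds Lcn2, were split by direction. Of its 19 measured rows 9 had a higher KO mean, and none was called. Gfap, the intermediate filament of astrocytes, read 13.42, 13.32, 13.48 and 13.15 in WT and 13.25, 12.95, 13.40 and 13.29 in KO, a difference of −0.12 (SE 0.12). Serpina3n, an acute-phase protease inhibitor of reactive astrocytes, differed by 0.17 (SE 0.12) and Cd44, a hyaluronan receptor, by −0.03. Emp1, a membrane protein, was higher by 0.31 (SE 0.13) and Ptx3, a soluble pattern receptor, differed by −0.25. Neither passed after adjustment.

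Pcolce2 had the other higher KO mean of at least 1.5-fold, and Chrna3, Pou4f1 and Xlr3b the lower ones. Pcolce2, an enhancer of collagen processing, read 8.08, 8.18, 8.38 and 8.41 in WT and 9.73, 9.19, 8.72 and 8.22 in KO, a difference of 0.70 (SE 0.25) that became 0.44 without KO 1. Choroid plexus genes were high in the same KO 1 array: 13 of the 18 rows of that list had a higher KO mean, and the list mean ran from 8.45 to 9.91 in WT and from 8.13 to 11.02 in KO. With the list mean as a covariate the Pcolce2 difference was 0.66. Chrna3, a nicotinic receptor subunit of the habenula, read 7.12, 8.01, 8.20 and 9.80 in WT and 6.89, 7.85, 6.92 and 6.12 in KO, a difference of −1.34 (SE 0.47). Pou4f1, a transcription factor of the same nucleus, read 5.44, 5.82, 6.38 and 7.23 against 5.28, 5.53, 5.33 and 5.15, a difference of −0.90 (SE 0.29). WT 4 was the highest array for both, and without it the differences were −0.83 and −0.56. With the mean of the habenula list as a covariate they were −0.61 and −0.51. The habenula list as a whole, which was written after these values were seen and holds both genes, was lower in KO in 10 of 12 rows, with a mean of 7.84 to 8.92 in WT and 7.69 to 8.14 in KO. Xlr3b, an X-linked lymphocyte-regulated gene, read 6.11, 6.97, 6.95 and 6.81 in WT and 5.77, 6.43, 5.83 and 6.45 in KO, a difference of −0.59 (SE 0.21).

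The 10 genes of smallest p in each direction differed by less than 1.5-fold. The genotypes did not overlap in any of the 20, against 2.17% of all rows without overlap. The 20 were picked by these same values, so the lack of overlap follows largely from the choice. Slco1a6, an organic anion transporter, led the higher ones at 4.86, 5.11, 5.04 and 4.95 in WT and 5.32, 5.47, 5.51 and 5.50 in KO, a difference of 0.46 (SE 0.10). Eme1, a subunit of a DNA repair nuclease, read 6.66, 6.65, 6.59 and 6.62 against 6.96, 6.95, 7.05 and 7.16. Cd55b, a complement-regulating membrane protein, read 9.10, 9.24, 9.16 and 9.40 against 9.98, 9.61, 9.80 and 9.53. Irf7, the transcription factor that amplifies type I interferon, read 6.11, 6.12, 6.19 and 6.10 against 6.54, 6.41, 6.66 and 6.41, a difference of 0.37 (SE 0.10). In these 4 genes every KO array lay above every WT array, and the limma adjusted p was 1.00 for each.

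The other 6 higher genes were Dnah6, a dynein of motile cilia (0.47), Tmem269, a membrane protein (0.43), Mustn1, a small muscle and skeletal nuclear protein (0.39), Alx1, a craniofacial homeobox factor (0.36), Dglucy, the mitochondrial D-glutamate cyclase (0.36), and Cenpk, a kinetochore subunit (0.35). Dglucy, the member that acts on glutamate, read 8.30, 8.24, 8.27 and 8.32 in WT and 8.59, 8.55, 8.81 and 8.62 in KO. Beside Dnah6, the ependyma list of ciliated cells had 11 of 14 rows with a higher KO mean, with list means of 7.18 to 7.62 in WT and 7.34 to 7.65 in KO, and the part of these cells in the Dnah6 difference was not tested.

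Among the lower genes, Sppl2c, an intramembrane protease of the testis, read 6.29, 6.51, 6.55 and 6.46 in WT and 6.05, 6.05, 6.16 and 6.05 in KO, a difference of −0.38 (SE 0.10). Slc36a2, a proton-coupled transporter of glycine and proline, read 7.54, 7.62, 7.38 and 7.51 against 7.17, 7.15, 7.24 and 7.15. Alg11, a mannosyltransferase of protein glycosylation, read 11.62, 11.47, 11.52 and 11.48 against 11.15, 11.30, 11.05 and 11.25. The remaining 7 were Adam3 (−0.46), Acoxl (−0.42), Ftsj3 (−0.40), Prm2 (−0.39), H2bu2 (−0.37), Ifna6 (−0.35) and Fgf6 (−0.33). Prm2 and Adam3 are known as sperm genes, Ftsj3 acts in ribosome assembly and Ifna6 is an interferon. Of the 20 genes, 18 had a mean below 8.91, the median of all hippocampus values.

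**Figure D2:**
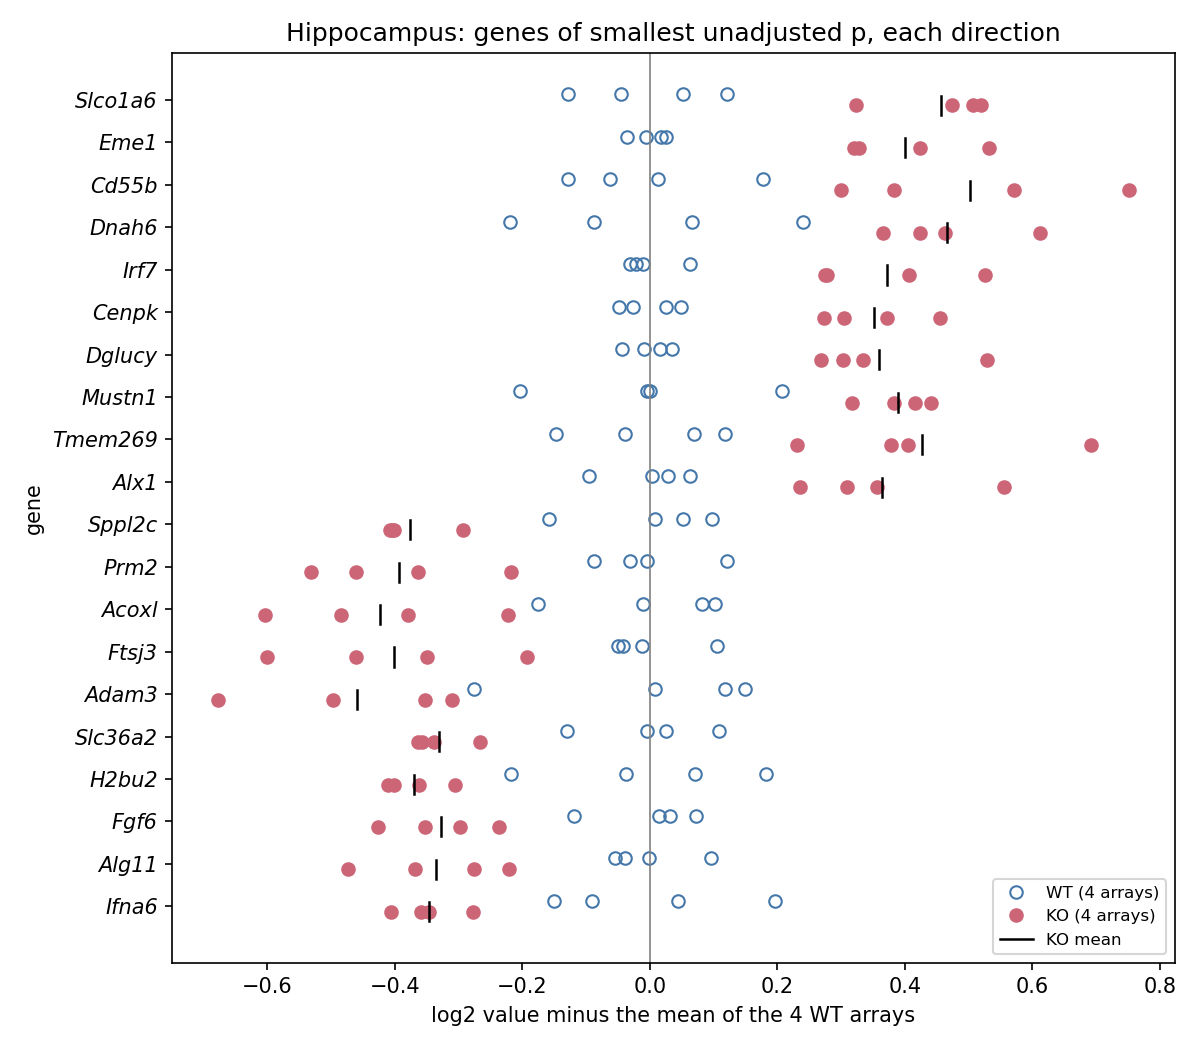
Values of the 10 genes of smallest unadjusted p in each direction, as log2 value minus the mean of the 4 WT arrays, with open circles for WT arrays, filled circles for KO arrays and black ticks for KO means. The KO circles of every gene lie on 1 side of its WT circles, at mean distances of 0.33 to 0.50.

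Enzymes of ammonia and glutamate metabolism showed no called change. Of 20 measured members of 23 listed, 8 had a higher KO mean and 12 a lower one, with a median of −0.02 and a range of −0.25 to 0.19, and 19 of the 20 intervals lay within 1.5-fold. Asns, which makes asparagine from aspartate with glutamine as nitrogen donor, read 15.19, 15.14, 14.86 and 15.09 in WT and 14.91, 14.59, 14.93 and 14.91 in KO, a difference of −0.24 (SE 0.11). Gad1 and Gad2, the enzymes of GABA synthesis, differed by −0.25 (SE 0.15) and −0.24 (SE 0.16). For Gad1 the lowest array was KO 2 at 12.08, against 12.64 to 12.73 in the other KO arrays. Kyat1, a glutamine transaminase, differed by 0.19 (SE 0.11).

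Of the 13 measured rows of the proline and ornithine list, 1 was higher and 1 lower at a limma unadjusted p under 0.05. Over all rows 2.9% had such a p. The same 2 rows, Prodh and Slc36a2, were without overlap between genotypes, where 2.17% of all rows were. Slc36a2 was picked by its p, and Prodh was a gene of fixed interest, with earlier results of these data known. Prodh, the mitochondrial enzyme that starts the breakdown of proline towards glutamate, read 9.74, 9.95, 9.98 and 9.81 in WT and 10.38, 10.08, 10.20 and 10.24 in KO. All KO arrays lay above all WT arrays, by 0.35 on average (SE 0.10, limma adjusted p 1.00), while Slc36a2, the proline transporter above, was lower. Aldh4a1, the next enzyme of that breakdown, differed by less than 0.01, and Aldh18a1, which acts in proline synthesis from glutamate, by −0.07. Over the 13 measured members of the proline and ornithine list, 7 were higher and 6 lower.

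Uptake and transport of glutamate and glutamine differed little. Slc1a2, the main astrocytic glutamate transporter, read 16.76, 16.85, 16.65 and 16.73 in WT and 16.69, 16.74, 16.58 and 16.76 in KO, a difference of −0.05 (SE 0.09, 95% interval −0.26 to 0.15). Slc1a3, its partner in astrocytes, differed by −0.04 (SE 0.14). Slc38a3, the glutamine exporter of astrocytes, differed by −0.02 (SE 0.18), with an interval of −0.40 to 0.37. Over the lists, 4 of 11 glutamate transporters and 5 of 13 glutamine transporters had a higher KO mean, with medians of −0.05 and −0.02. Every interval of the glutamine transporters lay within 1.5-fold.

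Receptors for glutamate and GABA were likewise split by direction. Of 9 measured NMDA receptor genes 4 were higher, with Grin2b, a main forebrain subunit, at 0.12 (SE 0.09), and all 9 intervals lay within 1.5-fold. AMPA and kainate receptor genes were higher in 8 of 17 and metabotropic genes in 3 of 8. GABA receptor genes were higher in 6 of 13, with the widest range of these lists, −0.26 to 0.58. The upper end is Gabrq, a subunit of hypothalamic neurons, which read 6.91, 6.34, 6.86 and 8.06 in WT and 6.53, 10.24, 7.17 and 6.58 in KO, so that KO 2 alone carried it.

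Water and potassium handling by astrocytes was of interest because swelling of these cells is a known effect of ammonia. Aqp4, their water channel, read 13.13, 13.06, 13.64 and 13.48 in WT and 13.14, 12.80, 13.13 and 12.84 in KO, a difference of −0.35 (SE 0.14) at a limma unadjusted p of 0.030 and an adjusted p of 1.00. KO 1 and KO 3 lay within the WT range. Of the 14 members of that list 8 were higher and 6 lower, Kcnj10, the potassium channel of astrocytic endfeet, at −0.14 and Gja1, the gap junction protein, at 0.03. The astrocyte marker list was evenly split, with 9 of 18 rows higher and a median of −0.01. In whole tissue, fewer cells of a type and less RNA per cell cannot be told apart.

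Oxidative stress genes that ammonia is known to act on showed no called change. Nox4, an oxidase that makes hydrogen peroxide, read 5.87, 6.20, 6.58 and 6.42 in WT and 6.56, 6.71, 6.18 and 6.22 in KO, a difference of 0.15 (SE 0.16). Hmox1, haem oxygenase, read 8.38, 8.29, 8.54 and 8.20 against 8.33, 8.07, 8.48 and 8.46, a difference of −0.02 (SE 0.12). Cdkn1a, the cell cycle inhibitor p21 of senescent cells, read 10.11, 10.26, 9.83 and 11.06 against 10.16, 10.50, 10.99 and 10.70, a difference of 0.27 (SE 0.24) that was 0.52 without WT 4 and 0.41 without KO 1, but 0.11 without WT 3 and 0.14 without KO 3. Across the lists, 9 of 22 Nrf2 targets and 9 of 15 oxidase and selenoprotein genes had a higher KO mean. The p53 and senescence list was lower in 14 of 18 rows, with a median of −0.08, where 47.5% of all rows were lower. Mt1 and Mt2, zinc-binding metallothioneins, differed by 0.07 (SE 0.10) and 0.18 (SE 0.12), Tspo, the mitochondrial translocator of neurosteroid synthesis, by −0.21 (SE 0.13), and Ogt, which attaches O-GlcNAc to proteins, by −0.02 (SE 0.09).

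Genes induced by glucocorticoids had the highest median of the pathway lists, 0.19 over 15 rows, of which 9 were higher. Lcn2 is among the 15, and the others span −0.37 to 0.30. Fkbp5, a chaperone of the glucocorticoid receptor, read 13.12, 13.17, 12.89 and 13.04 in WT and 13.03, 13.07, 13.72 and 13.56 in KO, so that KO 3 and KO 4 were high and KO 1 and KO 2 were not. Sult1a1, a sulfotransferase, was high in KO 2 at 9.52 and KO 3 at 9.10 against 8.55 to 8.88 in WT. Per1, a clock gene that glucocorticoids also induce, differed by −0.14 (SE 0.12). The circadian list was higher in 7 of 22 rows, and Dbp, a clock output gene, differed by −0.04 (SE 0.12). Fos and Arc, immediate early genes of active neurons, differed by −0.12 (SE 0.14) and 0.18 (SE 0.19).

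Interferon genes were higher in 12 of 17 rows with a median of 0.08, led by Irf7. Isg15, a ubiquitin-like interferon product, read 7.35, 7.61, 7.18 and 7.33 in WT and 7.52, 7.16, 8.09 and 7.61 in KO, a difference of 0.23 (SE 0.17). The mean of the list was 7.98 to 8.01 in WT and 7.95 to 8.25 in KO, with KO 3 the highest and KO 2 and KO 4 below the WT arrays. Cytokine and inflammation genes were higher in 11 of 20 rows and complement genes in 7 of 11. Tnf, Il6 and Il1b, leading inflammatory cytokines, differed by −0.06, 0.07 and 0.03.

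Energy metabolism genes were lower in most rows of 3 lists, without a called gene, where 47.5% of all rows were lower. Glycolysis and hypoxia genes were lower in 17 of 22 rows with a median of −0.07, and respiratory chain genes in 18 of 27 with a median of −0.04. Genes of the TCA cycle were lower in 11 of 19 with a median of −0.02. These lists are bright too, and the share of lower rows was not counted for bright rows alone. The respiratory chain mean was 12.72 to 12.75 in WT, and in KO it ran from 12.60 in KO 4, the lowest array in 13 of the 27 rows, to 12.75 in KO 1, the highest of the 8 arrays. Without KO 4 the list median was −0.03. Uqcrc2, a core subunit of complex III, read 11.01, 11.08, 11.02 and 11.19 in WT and 10.67, 10.90, 10.80 and 10.84 in KO, a difference of −0.27 (SE 0.10). Cyc1, the cytochrome of the same complex, read 9.55, 9.61, 9.48 and 9.44 against 9.37, 9.38, 9.26 and 9.09, a difference of −0.25 (SE 0.10). Neither overlapped between genotypes, and neither passed after adjustment. They were the only 2 of the 27 rows without overlap, where 2.17% of all rows did not overlap, 0.981% with KO below WT. Every interval of the 27 respiratory chain rows lay within 1.5-fold.

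Genes of neurons at large were mostly lower as well. In the pan-neuronal list 15 of 16 rows had a lower KO mean, with a median of −0.14, against 47.5% of all rows and a median of 0.0074. The list is bright, and all rows include the dim ones. Over only the rows with a mean above the median, the median difference was 0.0011. The share of lower rows was not counted for bright rows alone. Snap25, a protein of vesicle fusion, read 17.54, 17.61, 17.54 and 17.43 in WT and 17.43, 17.39, 17.35 and 17.24 in KO, a difference of −0.18 (SE 0.09). Elavl3, a neuronal RNA-binding protein, differed by −0.15 (SE 0.09). The list mean was 14.29 to 14.39 in WT and 14.16 to 14.30 in KO, with WT 3 just below KO 1 and the other arrays apart. Synaptic vesicle genes, which share members with it, were lower in 13 of 17 rows and plasticity kinases in 15 of 20. The largest shift in the latter was Camk2d, a calcium-dependent kinase, at −0.56 (SE 0.37), read 14.46, 14.22, 13.70 and 14.82 in WT and 14.17, 14.84, 13.10 and 12.87 in KO.

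Markers of the subfields did not follow the pan-neuronal genes. Dentate granule genes were higher in 11 of 12 rows, with a median of 0.16. Tdo2, tryptophan dioxygenase of granule cells, read 7.69, 6.76, 7.58 and 7.27 in WT and 7.59, 7.56, 7.77 and 8.27 in KO, a difference of 0.47 (SE 0.20). Prox1 read 12.27, 11.71, 12.78 and 12.06 against 12.52, 12.14, 12.76 and 12.86, a difference of 0.36 (SE 0.21). The list was low in WT 2 and WT 4, at 9.88 and 10.03, and high in KO 3 and KO 4, at 10.51 and 10.58, while WT 1 and WT 3, at 10.34 and 10.44, exceeded KO 1 and KO 2, at 10.19 and 10.14. CA1 genes were higher in 5 of 10 rows and CA3 and mossy cell genes in 6 of 12. CA2 genes, whose list did not separate hippocampus from cortex, were higher in 7 of 10 rows. Of the 10, Necab2 at −0.32 (SE 0.12) and Ccdc3 at −0.37 (SE 0.16) were lower at a limma unadjusted p under 0.05. Over all rows 2.9% had such a p, 1.29% with a lower KO mean.

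Other cell types gave no called gene. Oligodendrocyte genes were higher in 8 of 17 rows, precursors in 5 of 11, interneurons in 12 of 22 and endothelium in 8 of 17. Microglial genes were lower in 12 of 16 rows with a median of −0.06, all intervals within 1.5-fold. Higd1b, a pericyte gene, read 8.05, 8.17, 8.12 and 7.86 in WT and 7.60, 7.83, 7.65 and 7.83 in KO, a difference of −0.32 (SE 0.11), while the pericyte list was lower in 7 of 12 rows.

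**Figure D3:**
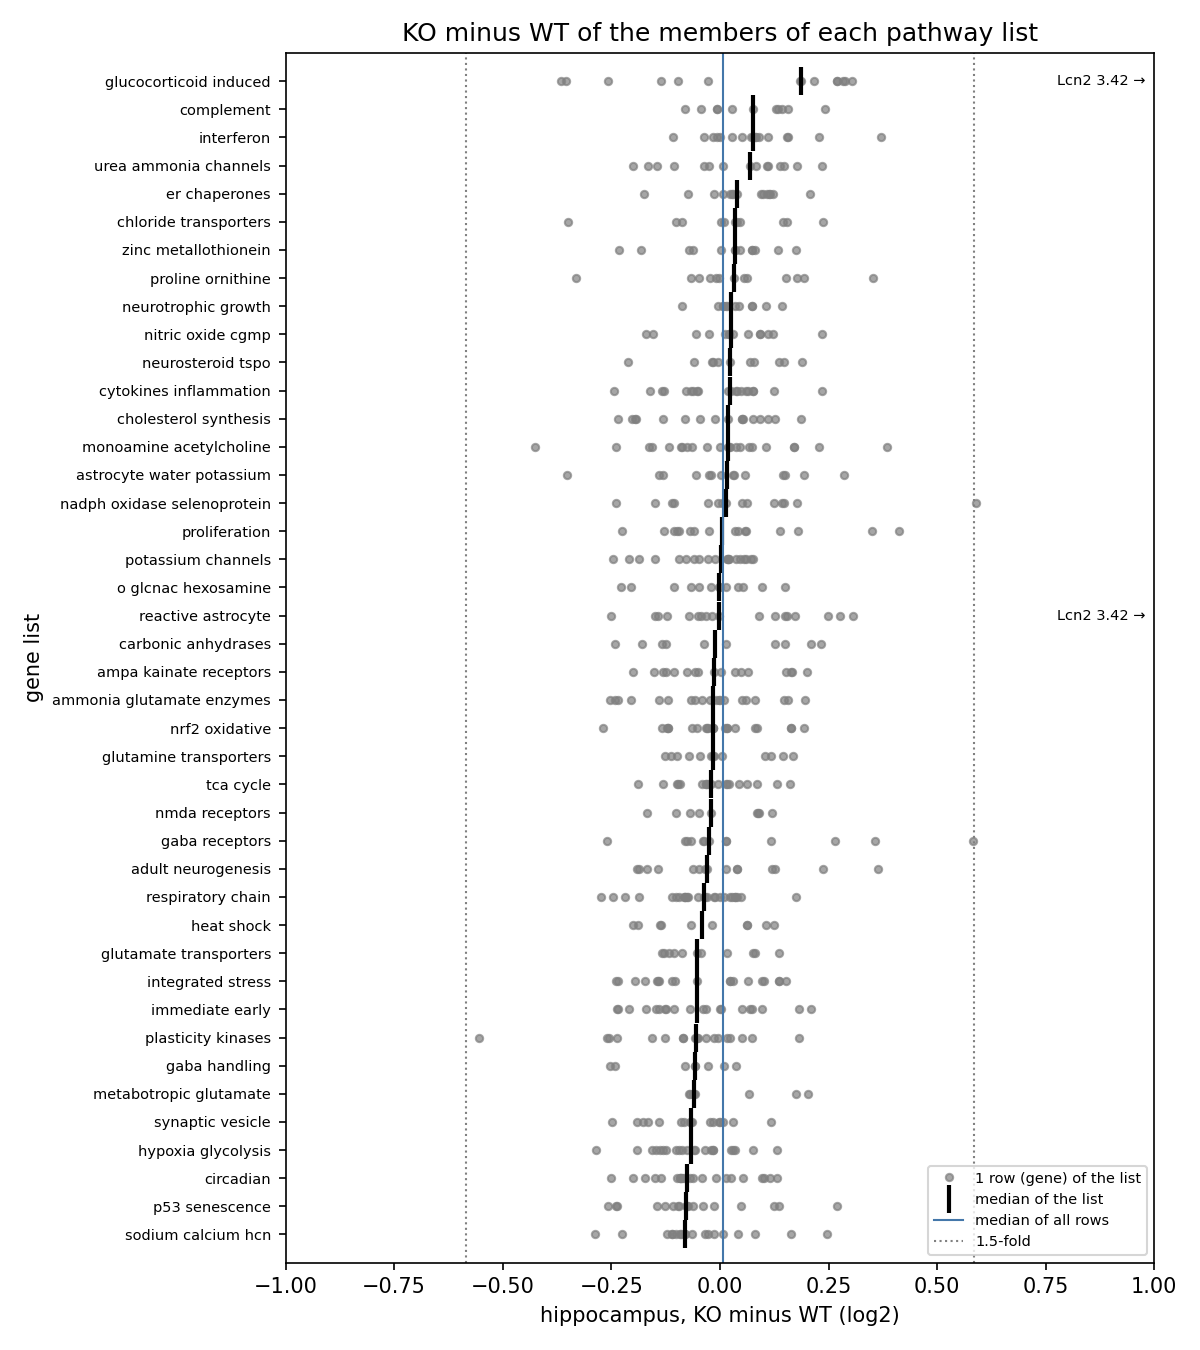
KO minus WT in hippocampus for the members of each pathway list, where dots are single rows, black bars the median of a list, the vertical line the median of all 19572 rows and the dotted lines 1.5-fold. Nearly all dots lie within 1.5-fold, list medians run from −0.08 to 0.19, and Lcn2 at 3.42 is written at the edge because it lies beyond the axis.

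Apart from Lcn2, the widest spread within genotype was in genes of neighbouring tissue, and it did not separate the genotypes. The first principal component held 31.2% of the variance and had KO 2 at 1 end, at 23.1, and KO 4 at the other, at −27.3, with the WT arrays between −12.8 and 8.8. Ttr, the thyroxine carrier made by the choroid plexus, weighed most on it and read 13.60, 14.37, 17.40 and 17.69 in WT and 18.33, 17.15, 13.64 and 10.65 in KO. Both genotypes thus held arrays with high and low Ttr, and the difference was −0.82 (SE 1.42). Kcnj13, Clic6 and F5, other genes of that tissue, followed the same arrays, and KO 1 was the highest array in all 18 rows of the choroid plexus list. Lcn2 also weighed on the first component, at 0.071 against 0.151 for Ttr.

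Markers of the deep structures around the hippocampus were high in different arrays, some of them shared. Tcf7l2, a transcription factor of the thalamus, read 12.11, 11.72, 15.34 and 13.15 in WT and 13.89, 14.68, 12.10 and 11.41 in KO, and WT 3 was the highest array in 13 of the 17 rows of the thalamus list. Drd2, the dopamine receptor of striatal neurons, read 8.47, 8.11, 10.69 and 10.85 against 8.88, 9.74, 10.94 and 7.92. Pmch, the melanin-concentrating hormone of the lateral hypothalamus, read 11.71 in KO 2 and 6.18 to 6.48 in the other 7 arrays, and 13 of the 16 rows of the hypothalamus list had a higher KO mean. Gh, the pituitary growth hormone, read 11.09, 8.67, 14.49 and 8.09 in WT and 8.60, 8.11, 8.85 and 9.54 in KO, and 4 of the 9 rows of the pituitary list had a higher KO mean. KO 4 was the lowest array in 13 of the 17 thalamus rows, 9 of the 18 choroid plexus rows and 7 of the 13 striatum rows. The marker genes of these structures varied within each genotype, and their part in the single-gene differences above was not tested. The covariate fits above give adjusted differences only. The habenula mean holds Chrna3 and Pou4f1 themselves, so their smaller differences under it were partly fixed in advance.

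**Figure D4:**
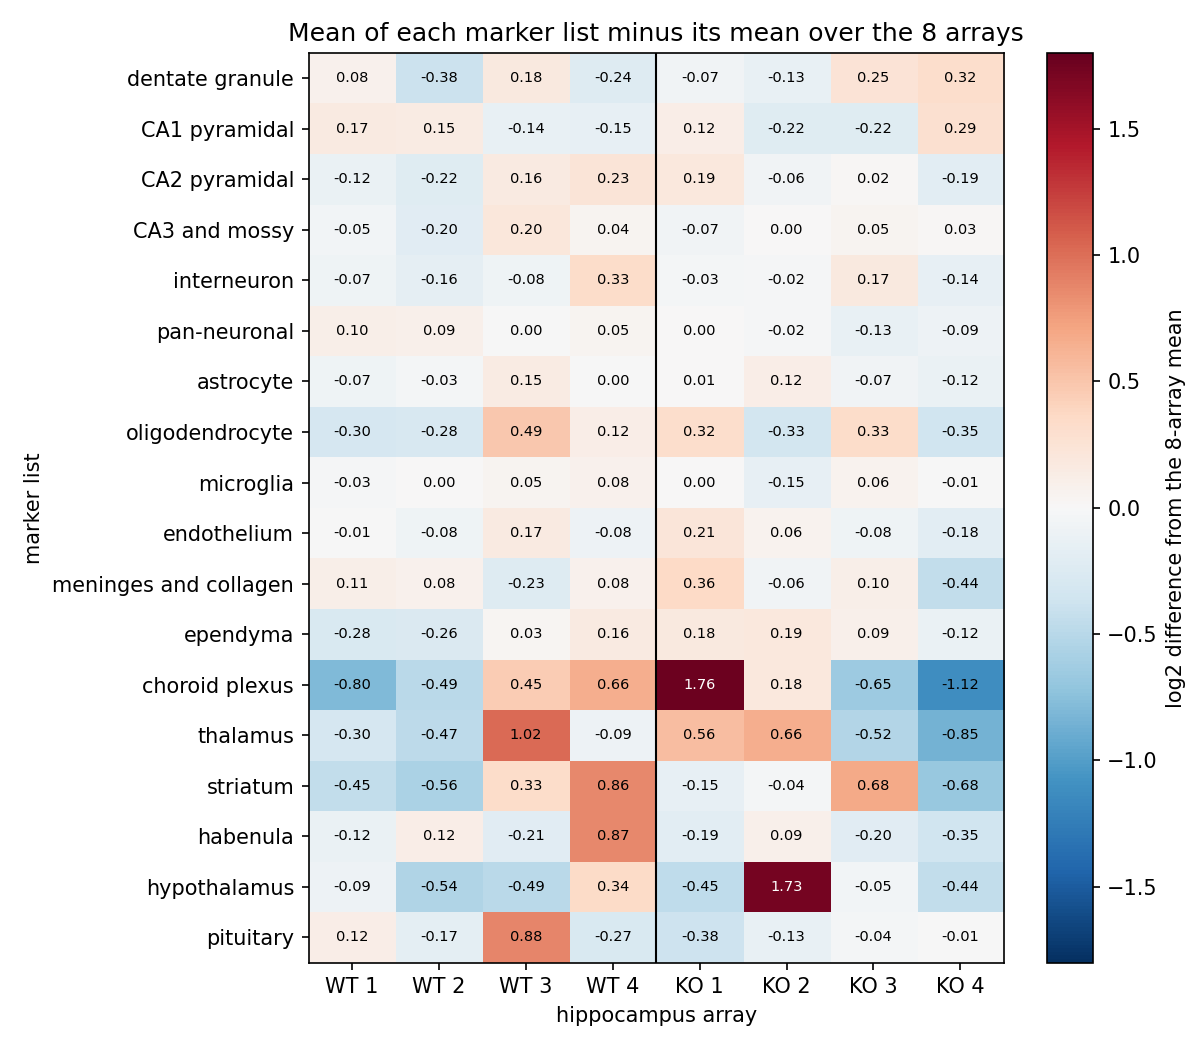
Mean of each marker list in each hippocampus array minus its mean over the 8 arrays, on the log2 scale, with WT left and KO right of the line. Lists of the hippocampal subfields and of glia vary less, oligodendrocytes the most among them, while choroid plexus is high in KO 1, thalamus in WT 3, striatum in WT 4 and KO 3, habenula in WT 4, hypothalamus in KO 2 and pituitary in WT 3.

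The KO effect in the hippocampus was set against that in the cortex and cerebellum by a contrast over all 24 arrays with the animal as a random block. No row passed in either contrast (0% each), with smallest limma adjusted p-values of 1.00 and 0.881. At an unadjusted p under 0.05 there were 813 rows (4.15%) against the cortex and 1033 (5.28%) against the cerebellum. In 7 of the 19572 rows the genotypes were apart without overlap in opposite directions in hippocampus and cortex. The same held in 7 of the 19572 rows for hippocampus and cerebellum. Whether these counts exceed chance was not tested.

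Prodh was among those 7 for the cortex, as its KO arrays lay above WT in hippocampus and below WT in cortex. Besides being of fixed interest, it was among the 3 genes of smallest p in the higher direction in both contrasts. The size of its contrasts thus follows largely from the choice. In the cortex it read 10.21, 10.20, 10.08 and 10.08 in WT and 9.995, 9.89, 9.95 and 10.01 in KO. In the cerebellum it read 9.96, 10.11, 9.82 and 9.93 in WT and 9.78, 9.82, 9.72 and 9.77 in KO, where KO 2 and WT 3, both at 9.82, met. Both contrasts came to 0.53, with an SE of 0.13 against the cortex, and neither passed after adjustment.

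Egln3, a hypoxia-induced prolyl hydroxylase, had one of the larger contrasts with the cortex. Egln3 and Prkca were named for their small p in that contrast. In hippocampus it read 8.69, 9.17, 8.94 and 8.76 in WT and 8.52, 8.46, 8.78 and 8.65 in KO, a difference of −0.29 (SE 0.12). In the cortex it read 9.15, 9.004, 9.47 and 8.79 against 11.21, 9.56, 9.37 and 10.68, and the contrast was −1.39 (SE 0.37, limma adjusted p 1.00). Prkca, a protein kinase C, had cortical KO 1 and KO 4 at 14.80 and 15.001 and the other cortical arrays at 12.92 to 13.85. Its hippocampal difference was −0.16 (SE 0.14).

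**Figure D5:**
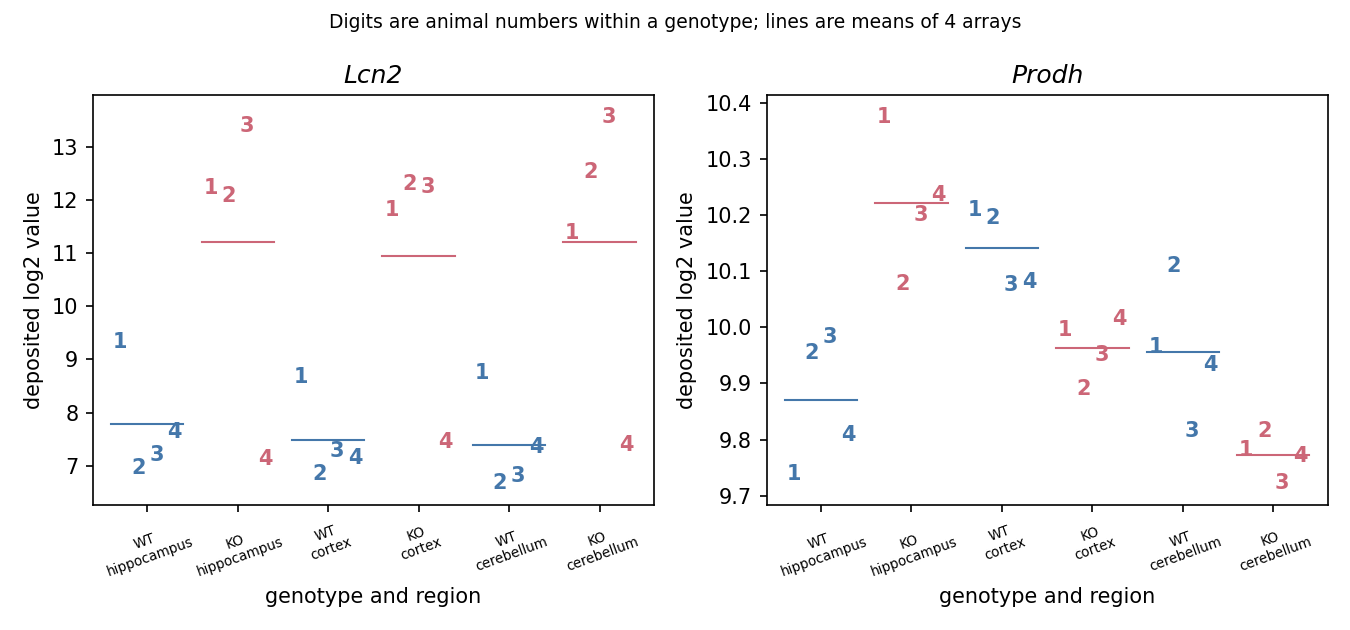
Deposited log2 values of Lcn2 and Prodh in the 3 regions, with the animal number within its genotype as the symbol, WT blue and KO red, and lines at the mean of 4 arrays. Lcn2 is high in KO 1, KO 2 and KO 3 and not in KO 4 in each region, whereas KO values of Prodh lie above WT in hippocampus and below WT in cortex.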

How the data were processed

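RNA of cortex, hippocampus and cerebellum was measured on 24 arrays, 4 animals per genotype. The labels name biotin and also Cy3 as the dye, so the chemistry is not settled. The authors deposited 1 log2 value per transcript cluster and array, made with RMA (per the submitters' processing notes), which corrects background, normalizes between arrays and summarizes probes. No source used here states its version, settings or genome build. RMA compresses differences among dim probes, and detection above background could not be judged.

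Genes were named through the platform annotation: 19572 of 22206 rows had 1 symbol and 2634 had none and were left out. Values were used as deposited, with no filter. The 8 hippocampus arrays were fitted in R 4.3.3 by limma 3.58.1, a moderated linear model with 2-sided tests and 6 residual and 6.3 prior degrees of freedom, and p-values were adjusted by Benjamini-Hochberg over all 19572 rows at a threshold of 0.05. A fit over all 24 arrays was an alternative, since it shares its spread with regions that differ in neighbouring tissue. Contrasts between regions used 24 arrays with the animal as a random block (duplicateCorrelation, statmod 1.5.0, correlation 0.0065). Animals are taken as separate samples; numbers repeat across genotypes, and WT and KO animals of a number correlated in their deviations at −0.24 to −0.04, so the numbers were not used to pair them.

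Named genes were the 10 of smallest p each way (predicted transcripts and receptor families left out), from each list its 3 members with the lowest p, and every member of short lists, the 12 of largest spread within genotype, genes of fixed interest, the 10 of smallest p in the 24-array fit, and the 3 of smallest p each way in each region contrast. Values of other list members, the 5 genes of at least 1.5-fold and the neutrophil genes were chosen after they were seen. Lists of 64 pathways and markers, and 3 added later (habenula, hypothalamus, pituitary), have no test. The members and lists were chosen with earlier results of these data known. Scripts were tested on simulated data. Alternatives covered the 24-array fit, normalization, centring, a filter on dim rows, array weights, a trended robust fit, the ordinary 2-sample test, a replicate block, marker covariates and leaving out each array. Region differences of Lcn2 within animals were added after the data were seen.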

Additional observations from a re-analysis of the deposited data

Results flagged for a closer look

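In groups of 4 arrays, a single array could stand further from the rest than Dixon's 95% limit. This held in 5 of 132 gene groups and 6 of 134 list groups examined. The limit allows about 1 in 20 only for groups not chosen by their values. The genes examined included the 12 of largest spread within genotype, among them Pmch and Gpr50, and those of largest difference, among them Hcrt. The lists were written with earlier results known, so that rate does not apply here. KO 2 stood apart for Pmch at 11.71 (other KO arrays 6.18 to 6.37), Gpr50 at 10.77 (6.22 to 6.98), Hcrt at 9.94 (7.57 to 7.84) and Gad1 at 12.08 (12.64 to 12.73). The first 3 are hypothalamic genes. KO 3 stood apart for Sppl2c at 6.16 (6.05 in the others).

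Among list means, WT 3 stood apart for ammonia and glutamate enzymes at 11.52 (other WT arrays 11.46 to 11.47) and for meninges and collagen at 9.48 (9.79 to 9.82). KO 4 stood apart for GABA handling at 11.73 (12.09 to 12.12), WT 1 for reactive astrocytes at 9.21 (8.93 to 8.97), KO 3 for complement at 9.16 (8.98 to 8.99) and WT 4 for olfactory bulb markers at 8.96 (8.65 to 8.69).

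For 3 of the named genes the KO arrays lay wholly on opposite sides of WT in 2 regions. Over all rows this held in 7 of 19572 for each pair of regions. Ntpcr and Tlr8 were named because of their small p in these contrasts, which also picked Prodh, a gene of fixed interest. The contrast of hippocampus with cortex was 0.53 for Prodh and 0.54 for Ntpcr, a nucleotide triphosphatase, and that with cerebellum was 0.62 for Tlr8, a receptor for single-stranded RNA. Ntpcr read 10.31, 10.30, 10.21 and 10.23 in hippocampus WT and 10.37, 10.33, 10.66 and 10.64 in KO. Tlr8 read 5.97, 6.19, 6.10 and 5.92 in hippocampus WT and 6.40, 6.27, 6.43 and 6.33 in KO. None of these contrasts passed the limma test after adjustment.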

How the results depend on the processing

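The count past the adjusted threshold was 0 in every alternative that kept all 8 arrays. The smallest adjusted p was 0.728 in the ordinary 2-sample test and 0.817 to 1.00 in the limma fits. When 1 array was left out the count was 0 to 1, the 1 being Lcn2 without KO 4. At an unadjusted p under 0.05 the count was 405 to 825 over the alternatives with all rows, and 237 of 9786 with only rows above the median. The replicate block, by animal number, gave 0 past the threshold, 405 at an unadjusted p under 0.05 and 7 of at least 1.5-fold, and changed no other call. The count of at least 1.5-fold, 5 in the report, was 1 with only rows above the median, 3 with the trended robust fit, 0 with the ordinary 2-sample test, 24 with the habenula covariate (added after the data were seen) and 8 to 16 when 1 array was left out. Of the genes at an unadjusted p under 0.05, 55.6% were higher in KO as deposited, 46.9% after quantile normalization and 44.3% with arrays shifted to 1 median. The 20 genes of smallest p kept their sign and an unadjusted p under 0.05 in every alternative in which they were tested (2 of them with only rows above the median). The alternatives reuse the arrays on which these genes were picked, so this was largely fixed in advance. Of 1071 pairs of a named gene and an alternative, 33 had another sign, in 12 genes. Both region contrasts kept a count of 0. Depth of signal could not be judged, and 4 animals per genotype limit all values.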

Other observations

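Nfkbia, an inhibitor of NF-κB that glucocorticoids induce, and Sgk1, a glucocorticoid-induced kinase, split the hippocampus arrays by animal number in both genotypes. In hippocampus Nfkbia read 9.22 and 9.66 in WT 1 and WT 2, 10.39 and 10.63 in WT 3 and WT 4, 9.19 and 9.39 in KO 1 and KO 2, and 10.16 and 10.11 in KO 3 and KO 4. The same split of numbers 1 and 2 from 3 and 4 held for Nfkbia in both genotypes of the cortex and of the cerebellum. Sgk1 in hippocampus read 10.92 and 11.92 in WT 1 and WT 2, 13.26 and 13.17 in WT 3 and WT 4, 11.10 and 11.39 in KO 1 and KO 2, and 12.81 and 12.52 in KO 3 and KO 4. Sgk1 kept the split in the cerebellum and in cortex KO, but not in cortex WT, where WT 2 at 12.17 lay above WT 3 at 11.55. Txnip, a thioredoxin-binding protein, split the WT hippocampus arrays, at 13.03 and 13.37 against 14.12 and 14.03, but not the KO ones, at 13.24, 13.29, 13.39 and 13.22. These genes were singled out after their values were seen, and the labels do not say what the numbers stand for.

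Peg10 and Dgkk, genes of the hypothalamus list, were also highest in KO 2, at 12.65 and 9.95, against 8.68 to 10.46 and 6.94 to 7.90 in the other 7 arrays, and KO 2 was the highest array in 12 of the 16 rows of that list. Prl, the pituitary prolactin, was highest in WT 3 at 10.26, the array in which Gh was also highest.

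In the 24-array fit the genes of smallest p included Cypt12 and Glycam1, which are outside the 20 of the 8-array fit. Cypt12, a spermatid gene, read 6.86, 6.99, 7.14 and 7.16 in WT and 6.49, 6.51, 6.79 and 6.81 in KO. Glycam1, a mucin-like adhesion ligand, read 5.72, 5.77, 6.24 and 6.10 in WT and 6.36, 6.48, 6.18 and 6.21 in KO.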
